A study of Mus musculus with 4 samples.

Results

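Late activity genes are transcribed in neurons in a second wave, after the immediate early transcription factors, and many of them encode proteins that are secreted or act at synapses. 10 such genes were followed across the cell classes of the medial prefrontal cortex of the mouse: Nptx2, Vgf, Scg2, Inhba, Pcsk1, Nrn1, Baz1a, Ptgs2, Sorcs3 and Rasgrp1. They are 10 of the 32287 features counted, each was taken by its symbol, and each symbol had 1 row. All 10 were detected, and all 10 had at least 100 unique molecular identifiers (UMIs, each standing for 1 captured RNA molecule) in the broad comparisons made here.

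The tissue came from 4 C57BL/6J mice aged 9 weeks, 2 injected with the psychedelic DOI and 2 given saline. Each pair was 1 female and 1 male. It was dissected 24 h after the injection. All 4 mice, saline controls included, expressed scFLARE2, a tool in which calcium and light together release the transcription factor tTA, and a tTA-driven reporter, TRE-mCherry-p2a-bReaChES. How these were delivered and which promoter drives scFLARE2 are not given in the sources used here. Nuclei were isolated with a kit and nuclear RNA was counted at its 3′ end with 10x Genomics chemistry. The counts stand in 1 pooled matrix with 4 libraries, separated by the number at the end of each barcode, and nothing used here ties a library to a mouse. The matrix was therefore treated as 1 sample. DOI and saline, or the sexes, were not compared, and no test across animals was made. Differences between cell classes are described by their size, by an exact 95% interval for counting error only, and by whether all 4 libraries show them.

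The 10 proteins fall into a few groups by role. Pcsk1 is the prohormone convertase that cleaves peptide precursors inside dense-core granules, and Vgf and Scg2 (secretogranin II) are granule proteins that are themselves cut into peptides. Nptx2 is a secreted pentraxin that clusters AMPA-type glutamate receptors, Inhba is the subunit from which the growth factor activin A is built, and Nrn1 (neuritin) is a membrane-anchored protein that promotes the growth of dendrites and synapses. Ptgs2 is the inducible cyclooxygenase that starts prostaglandin synthesis, and Rasgrp1 activates Ras in response to diacylglycerol and calcium. Sorcs3 is a Vps10-domain sorting receptor found at synapses, and Baz1a is an accessory subunit of ISWI-type chromatin remodelers. Transcription of many late activity genes in neurons is driven by CREB, which binds the cyclic AMP response element (CRE), and by AP-1, Egr and serum response factors.

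In GENCODE M21 on build GRCm38 (mm10) all 10 genes are protein coding. Pcsk1 lies at chr13:75089826-75134861 on the plus strand, Vgf at chr5:137026392-137033351 on the plus strand and Scg2 at chr1:79434669-79440120 on the minus strand. Nptx2 lies at chr5:144545902-144557478 and Inhba at chr13:16011851-16031621, both on the plus strand, and Nrn1 at chr13:36725361-36735131 on the minus strand. Ptgs2 lies at chr1:150100031-150108227 on the plus strand and Rasgrp1 at chr2:117279993-117343001 on the minus strand. Sorcs3 spans 599.5 kb at chr19:48206025-48805505 on the plus strand, and Baz1a lies at chr12:54892989-55014348 on the minus strand. 3 of the 10 overlap another counted gene. Exons of Nrn1 overlap those of Fars2 on the opposite strand, exons of Baz1a overlap Gm20403 on the same strand, and the antisense genes Gm48444 and Gm30177 lie across Inhba and Nrn1. Whether the counting used strand is not given in the sources used here, so the counts of these 3 genes may hold reads of their neighbours.

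The promoters are shown because the CRE is the element most closely tied to this class of genes. RefSeq promoter sequences (GRCm38.p6) were found for 6 of the 10 genes: Scg2, Inhba, Pcsk1, Ptgs2, Sorcs3 and Rasgrp1. The 250 bases before each start were searched on both strands for the full CRE (TGACGTCA), its half-site (TGACG), AP-1 (TGANTCA), Egr (GCGNGGGCG), the CArG box and the E-box (CACGTG). The full CRE contains the half-site on both strands. Pcsk1 and Scg2 hold the full CRE, at bases -78 to -71 and -68 to -61 from their starts, and Pcsk1 holds a separate half-site at -50 to -46. None of the 6 motifs was found in this window of Inhba, Ptgs2, Sorcs3 or Rasgrp1. The full CRE is in 1.55% of 32851 mouse promoters searched in the same way and the half-site in 17.8%, while AP-1 is in 6.75%, Egr in 4.70%, the CArG box in 1.47% and the E-box in 6.02%. Below are the Pcsk1 promoter at chr13:75089607-75089825 on the plus strand, the Scg2 stretch at chr1:79440076-79440105 on the minus strand, and for contrast the Inhba promoter at chr13:16011601-16011850 on the plus strand, each written 5′ to 3′ with CRE matches in capitals. The RefSeq starts of Pcsk1, Scg2 and Rasgrp1 lie inside the longer GENCODE genes, and the Pcsk1 promoter is printed up to base -32, where the GENCODE gene begins, as 219 of its 250 bases.
Pcsk1: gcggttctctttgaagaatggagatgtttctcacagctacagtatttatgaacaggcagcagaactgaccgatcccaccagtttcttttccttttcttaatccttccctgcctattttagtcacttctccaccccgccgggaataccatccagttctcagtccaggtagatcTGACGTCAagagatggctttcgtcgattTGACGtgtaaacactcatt
Scg2: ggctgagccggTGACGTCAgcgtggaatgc
Inhba: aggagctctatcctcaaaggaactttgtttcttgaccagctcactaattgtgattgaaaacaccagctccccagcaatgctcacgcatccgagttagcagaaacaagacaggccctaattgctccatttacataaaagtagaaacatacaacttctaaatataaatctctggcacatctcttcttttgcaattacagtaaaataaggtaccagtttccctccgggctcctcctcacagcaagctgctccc

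The 4 libraries held 19968985 to 57947155 UMIs, and 12981 of 22402 barcodes were kept as nuclei, with a median of 8892 UMIs and 3322 genes. Library 3 was the smallest, with 1573 nuclei against 3474 to 4187 in the others. Among the nuclei kept, 17 of 12964 distinct barcode sequences occurred in more than 1 library. Clusters were named after the class whose fixed markers they carried, so each name means nuclei like that class. 7992 excitatory neurons of 8 subclasses, 1313 inhibitory neurons of 4 subclasses and 2520 non-neuronal nuclei were named, and 615 nuclei stayed unnamed. Of the fixed markers measured, the share enriched ran between 3 of 9 in L5 IT, with 3 of 6 in L4/5 IT, and 8 of 8 in L6 CT among the excitatory classes. In these names IT, ET, NP and CT stand for intratelencephalic, extratelencephalic, near-projecting and corticothalamic neurons. A cluster of 335 nuclei with medium spiny neuron markers, a striatal cell type, split 223, 79, 32 and 1 over libraries 1 to 4, and with the neuroblast cluster it was left out of the comparisons of neurons.

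Excitatory neurons were compared with inhibitory neurons first. Levels are counts of a gene per 1000000 UMIs (CPM), summed over the nuclei of a class. A gene was called higher or lower if it had at least 100 UMIs, a ratio of at least 2-fold, and the same direction in all 4 libraries. 6 of the 10 genes were called higher in excitatory neurons, where 9.24% of 15710 genes were, and 1 of the 10 was called lower, where 7.42% were. The median log2 ratio was 1.46 for the 10 genes and -0.12 for all genes tested. The genes on the excitatory side were Baz1a, Nptx2, Nrn1, Ptgs2, Rasgrp1 and Pcsk1, and the one on the inhibitory side was the granule protein Scg2.

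The 3 genes of the dense-core granule did not share a direction. Pcsk1, the convertase, had 74.9, 66.6, 81.1 and 66.4 CPM in excitatory neurons of libraries 1 to 4, against 39.7, 29.0, 29.5 and 28.4 CPM in inhibitory neurons. The ranges do not overlap, and the log2 ratio of the sums was 1.16 (95% interval 1.01 to 1.31). The Pcsk1 ratio fell below 2-fold with each nucleus thinned to 1500 UMIs (0.91) and with a mean over nuclei in place of the sum (0.95). Scg2 had 54.2, 42.5, 31.1 and 42.2 CPM in excitatory neurons, against 99.7, 94.8, 83.1 and 86.9 CPM in inhibitory neurons. Again the ranges do not overlap, with the inhibitory neurons above, and the log2 ratio was -1.06 (-1.16 to -0.97). Vgf had 47.5, 45.5, 34.2 and 45.4 CPM in excitatory neurons, against 86.8, 81.4, 79.9 and 85.7 CPM in inhibitory neurons. The excitatory value was below the inhibitory one in all 4 libraries, but its log2 ratio of -0.92 (-1.01 to -0.82) did not reach 2-fold. Scg2 stood just past the 2-fold limit and ended just inside it, at -0.99, when doublets were kept. Free RNA may add to the Vgf and Scg2 values, as set out below, and its part was not tested.

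Among the secreted synaptic proteins, Nptx2 and Nrn1 were on the excitatory side. Nptx2, the pentraxin, had 15.6, 13.7, 17.6 and 15.1 CPM in excitatory neurons, against 6.15, 4.55, 1.64 and 3.70 CPM in inhibitory neurons. All excitatory values exceed all inhibitory ones, and the log2 ratio was 1.83 (1.44 to 2.25). Nrn1 had 84.3, 81.2, 124 and 85.3 CPM in excitatory neurons, against 27.7, 23.3, 19.7 and 28.6 CPM in inhibitory neurons. Its log2 ratio was 1.80 (1.64 to 1.97), with library 3 highest in excitatory and lowest in inhibitory neurons. Inhba had 27.7, 34.7, 44.5 and 25.5 CPM in excitatory neurons, against 17.2, 27.3, 25.2 and 16.5 CPM in inhibitory neurons. Those ranges overlap although each library has the excitatory value above, and the log2 ratio of 0.56 (0.38 to 0.75) was not called.

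Both signalling enzymes were on the excitatory side. Ptgs2 had 9.16, 8.36, 12.5 and 10.3 CPM in excitatory neurons, against 3.38, 2.85, 1.09 and 3.21 CPM in inhibitory neurons, a log2 ratio of 1.79 (1.31 to 2.31). Rasgrp1 had 141, 137, 138 and 146 CPM in excitatory neurons, against 39.1, 42.1, 24.1 and 51.9 CPM in inhibitory neurons, a log2 ratio of 1.76 (1.63 to 1.88). For both enzymes every excitatory value lies above every inhibitory value. Sorcs3, the sorting receptor, had 500, 530, 632 and 454 CPM in excitatory neurons, against 336, 366, 434 and 297 CPM in inhibitory neurons. Its log2 ratio of 0.56 (0.51 to 0.60) was not called. Baz1a had the widest ratio of the 10, at 3.80 (2.67 to 5.25), with 6.54, 6.21, 10.8 and 5.28 CPM in excitatory neurons against 0.923, 0, 0.547 and 0.494 CPM in inhibitory neurons. The inhibitory sum rests on 6 UMIs in 1313 nuclei.

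RNA that leaks from broken cells adds counts to nuclei that do not make it, so the levels were set beside Slc17a7, which loads glutamate into vesicles and marks excitatory neurons. Slc17a7 stood in inhibitory neurons at 31.4% and in non-neuronal nuclei at 71.0% of its excitatory level, and 90.5% of excitatory, 46.5% of inhibitory and 43.1% of non-neuronal nuclei held at least 1 of its UMIs. Their median depths were 10876, 8679 and 3010 UMIs. 5 of the 10 genes were below that share in inhibitory neurons: Baz1a at 7.20%, Nptx2 at 28.1%, Nrn1 at 28.7%, Ptgs2 at 29.0% and Rasgrp1 at 29.6% of their excitatory level. In the pooled nuclei these inhibitory levels cannot be told apart from background. In non-neuronal nuclei Nptx2 at 69.0%, Ptgs2 at 70.4%, Nrn1 at 71.2% and Rasgrp1 at 50.9% were again close to or below Slc17a7. Pcsk1 at 44.8% and Inhba and Sorcs3 at 67.7% and 67.9% were above it in inhibitory neurons, and at 19.9%, 26.5% and 28.1% they were below it in non-neuronal nuclei. Vgf and Scg2 stood apart from the rest: at 189% and 209% in inhibitory neurons and at 161% and 158% in non-neuronal nuclei, their level was higher there than in excitatory neurons. In microglia alone they also stood at 189% and 209% of their excitatory level. Their inhibitory levels were thus no higher than those of microglia, and the part of free RNA in them was not tested. The Slc17a7 share varied with the library, at 24.8%, 35.8%, 13.2% and 41.2% in inhibitory neurons of libraries 1 to 4, and library 3 was lowest. Nptx2, Nrn1, Ptgs2 and Rasgrp1 were all below it in libraries 2 and 4, but not in the others. In library 1 they were above it, at 39.4% for Nptx2, 36.9% for Ptgs2, 32.9% for Nrn1 and 27.7% for Rasgrp1. In library 3 Rasgrp1 at 17.5% and Nrn1 at 15.8% were above it, and Nptx2 at 9.32% and Ptgs2 at 8.75% were below.

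**Figure D1:**
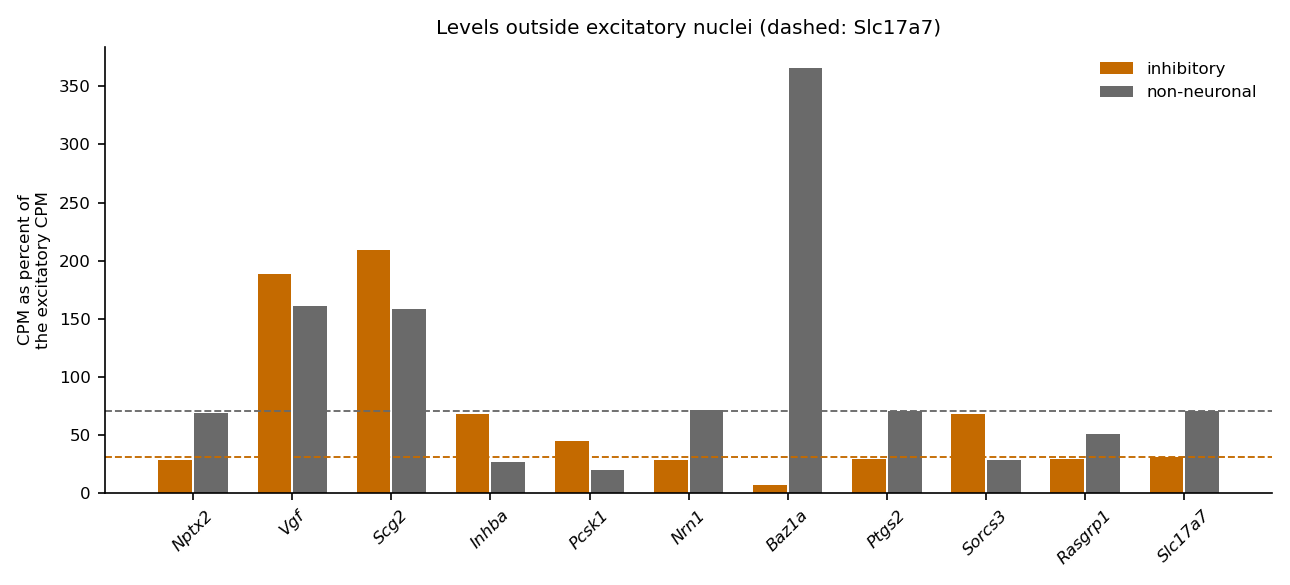
Level of each gene in inhibitory and in non-neuronal nuclei as a percentage of its level in excitatory neurons, with Slc17a7 for comparison (its levels are the dashed lines). Nptx2, Nrn1, Ptgs2 and Rasgrp1 lie just below Slc17a7 in inhibitory neurons (28.1% to 29.6% against 31.4%) and Baz1a far below it (7.20%), while Vgf and Scg2 exceed 100% in both groups and Baz1a reaches 366% in non-neuronal nuclei.

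In the comparison of all neurons with non-neuronal nuclei, 3 of the 10 genes were called higher in neurons, where 15.0% of 16427 genes were, and 1 was called lower, where 25.7% were. The median log2 ratio was 0.40 for the 10 genes and -0.41 for all genes. Pcsk1 had 66.1 CPM in neurons and 14.1 CPM in non-neuronal nuclei, a log2 ratio of 2.23 (1.97 to 2.50). Inhba had 29.8 CPM in neurons and 8.19 CPM in non-neuronal nuclei, a log2 ratio of 1.86 (1.52 to 2.22). Sorcs3 had 490 CPM in neurons and 143 CPM in non-neuronal nuclei, a log2 ratio of 1.78 (1.70 to 1.86). All 3 were higher in neurons in every library. With at most 1% mitochondrial UMIs allowed, which left 331 of the 2520 non-neuronal nuclei, none of the 3 was called and Inhba stood at -0.15. No class of oligodendrocyte precursors and no L2/3 IT class was named at that setting, so the sides differ from those of the main comparison. Rasgrp1 at 0.85, Nptx2 at 0.41, Ptgs2 at 0.38 and Nrn1 at 0.37 did not reach 2-fold, and neither did Vgf at -0.54 and Scg2 at -0.49, the log2 ratio of Scg2 being below 0 in 3 of 4 libraries.

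Baz1a was the member called lower in neurons. It had 5.90, 5.42, 9.57 and 4.77 CPM in neurons of libraries 1 to 4, against 14.9, 31.2, 27.5 and 23.0 CPM in non-neuronal nuclei, and the log2 ratio was -2.03 (-2.26 to -1.80). Of the 209 non-neuronal UMIs 149 came from microglia, the immune cells of the brain, where Baz1a stood at 96.4, 106, 126 and 141 CPM and 22.1% of nuclei held a UMI of it at a median depth of 2353 UMIs. In oligodendrocytes, at a like median depth of 2693 UMIs, the share was 1.44%, and in excitatory neurons, at 10876, it was 4.0%. Slc17a7 in microglia was at 98.0% of its excitatory level, whereas Baz1a was at 1739%. Committed oligodendrocyte precursors had 32.5 CPM of Baz1a from 17 UMIs, whereas oligodendrocyte precursors (OPC) had 1 UMI in 376 nuclei.

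Of the other genes outside cortical neurons, Sorcs3 was high in 1 glial class. OPC had 560, 586, 515 and 538 CPM of Sorcs3 and 84.8% of OPC nuclei held a UMI, against 27.5 CPM and 6.63% in astrocytes, 26.9 CPM and 5.72% in microglia and 59.7 CPM and 13.6% in oligodendrocytes. The median depth of OPC nuclei was 3934.5 UMIs, and that of astrocytes 3600 UMIs. In the medium spiny-like cluster Inhba stood at 110 CPM and Baz1a at 40.4 CPM, both above their levels in every cortical neuron class, although nearly all of that cluster came from libraries 1 to 3. Vgf and Scg2 were spread over all non-neuronal classes, between 44.0 and 89.0 CPM for Vgf and between 51.1 and 91.6 CPM for Scg2, and in both genes library 3 was lowest in the non-neuronal sum, at 40.3 and 28.6 CPM.

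**Figure D2:**
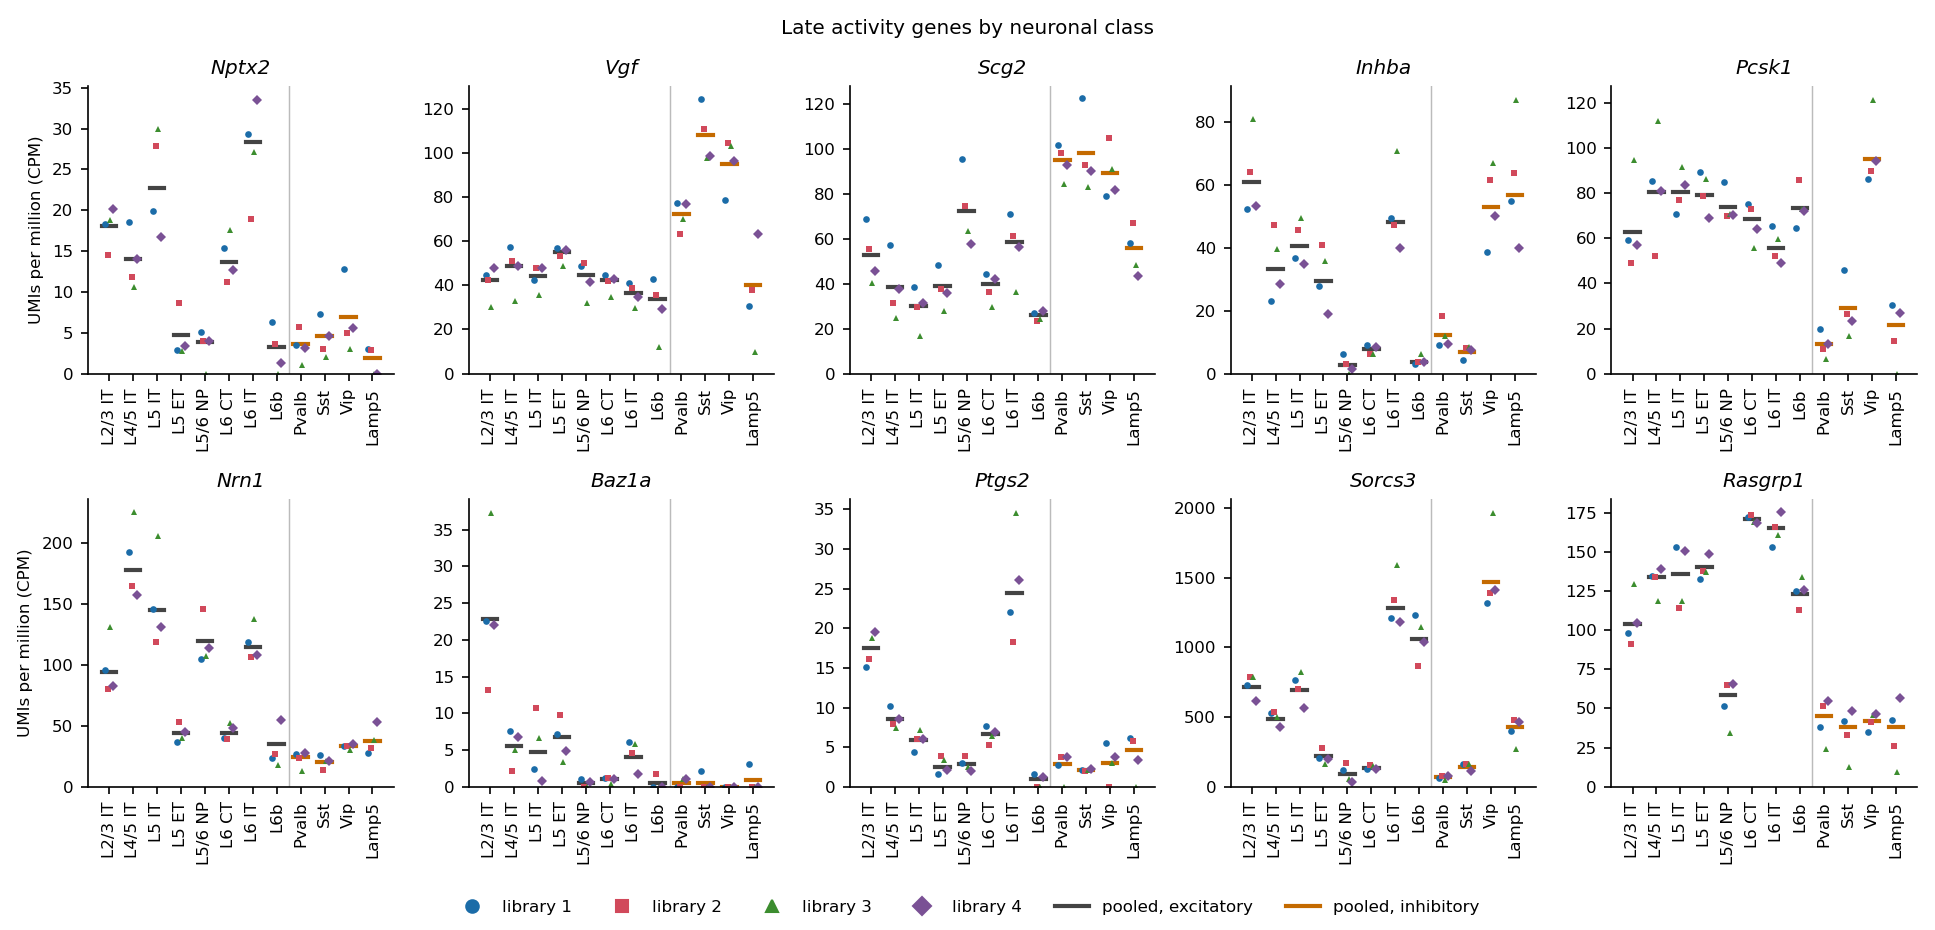
Level of each of the 10 genes (CPM, linear axis starting at 0, 1 panel a gene) in the 8 excitatory and 4 inhibitory neuron classes, with 1 point a library and a short bar for the pooled value (grey in excitatory, orange in inhibitory classes). Sorcs3 is highest in Vip neurons (1472 CPM), Nrn1 in L4/5 IT (177 CPM), Baz1a in L2/3 IT (22.8 CPM), and Scg2 and Vgf in Sst neurons (98.3 and 108 CPM).

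**Figure D3:**
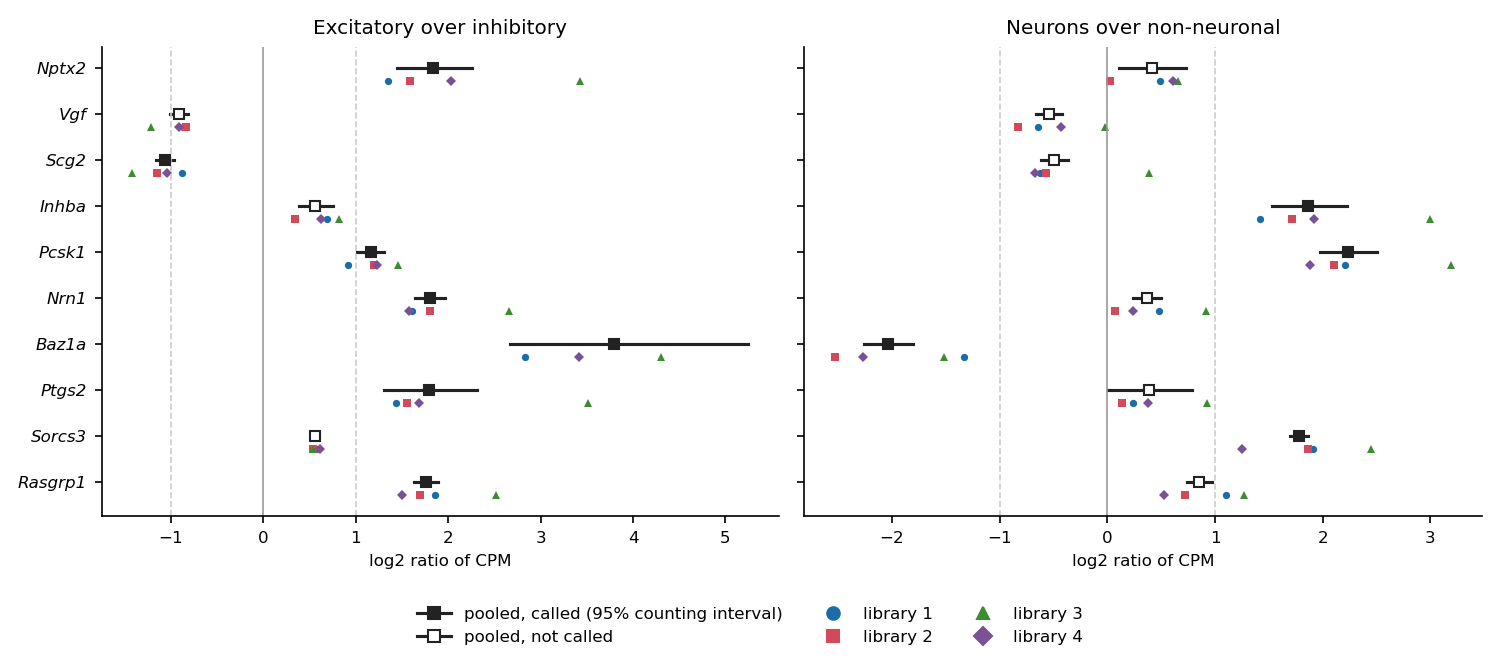
Log2 ratio of the 10 genes for excitatory over inhibitory neurons and for neurons over non-neuronal nuclei, with the pooled ratio, its 95% interval for counting error and the 4 library ratios. Filled squares are called, dashed lines mark 2-fold, and Baz1a in library 2 has no point in the first panel because its inhibitory count was 0. In the first comparison 6 genes pass 2-fold above and Scg2 passes below, and in the second Pcsk1, Inhba and Sorcs3 pass above and Baz1a passes below.

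Within the excitatory neurons each of the 8 subclasses was set against the other 7 pooled, which share nuclei from comparison to comparison. 8 of the 80 gene and subclass pairs were called higher, where 2.86% of all genes were over the same 8 comparisons, and 19 were called lower, where 6.94% were. Vgf, Scg2 and Pcsk1, the granule genes, had no call in any of the 8 subclasses. Vgf ran between 33.6 CPM in L6b and 55.0 CPM in L5 ET, and Pcsk1 between 55.7 CPM in L6 IT and 80.6 CPM in L5 IT. Scg2 ranged more widely, with 26.1 CPM in L6b, 30.0 CPM in L5 IT and 72.3 CPM in L5/6 NP. The other 7 genes each had at least 1 call.

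The upper layer and deep IT neurons carried most of the higher calls. In L2/3 IT neurons 3 of 10 genes were higher, where 3.76% of all genes were, and none was lower, where 5.45% were. Baz1a had 22.6, 13.2, 37.3 and 22.0 CPM in L2/3 IT neurons of libraries 1 to 4 and a pooled 22.8 CPM, against 3.65 CPM in the other excitatory neurons, a log2 ratio of 2.64 (2.42 to 2.87). No other excitatory subclass came near: the next, L5 ET, had 6.77 CPM, and its library values of 3.38 to 9.72 CPM do not overlap those of L2/3 IT. Inhba had 52.3, 64.1, 80.9 and 53.3 CPM in L2/3 IT, with 61.1 CPM pooled against 25.5 CPM in the others, a log2 ratio of 1.26 (1.15 to 1.37). Ptgs2 had 15.1, 16.1, 18.8 and 19.5 CPM, with 17.5 CPM pooled against 8.43 CPM, and its log2 ratio of 1.05 (0.84 to 1.26) fell below 2-fold, to between 0.88 and 0.99, in 4 other settings. Nrn1 was the gene of L4/5 IT neurons, with 192, 165, 225 and 157 CPM and 177 CPM pooled against 79.0 CPM in the others, a log2 ratio of 1.17 (1.09 to 1.24), where 2.39% of all genes were called higher and 6.02% lower. Its next levels were 145 CPM in L5 IT and 119 CPM in L5/6 NP, and the L4/5 IT and L5 IT library ranges overlap.

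L6 IT neurons had 3 genes higher, where 1.74% of all genes were, and none lower, where 5.01% were. Sorcs3 had 1214, 1340, 1591 and 1185 CPM there, with 1282 CPM pooled against 392 CPM in the other excitatory neurons, a log2 ratio of 1.71 (1.68 to 1.74). Ptgs2 had 22.1, 18.3, 34.6 and 26.1 CPM, with 24.4 CPM pooled against 7.61 CPM, a log2 ratio of 1.68 (1.48 to 1.88). Nptx2 had 29.3, 19.0, 27.1 and 33.5 CPM, with 28.3 CPM pooled against 13.2 CPM, a log2 ratio of 1.10 (0.92 to 1.27). The Nptx2 call is the least firm of the 3: it was lost in 6 other settings, and without library 4 the log2 ratio was 0.87. Sorcs3 was also called in L6b neurons, where 3.06% of genes were, with 1059 CPM against 497 CPM in the others and a log2 ratio of 1.09 (1.03 to 1.15). This call was lost in 5 settings. The log2 ratio was 0.36 with at most 1% mitochondrial UMIs, where no L2/3 IT class was named and the reference therefore differed. With doublets kept it was 0.38 and at clustering resolution 2.0 it was 0.47. It was 0.81 with at least 1000 genes and 0.97 when library 1 was left out. L5 IT neurons had no call in either direction, where 1.8% of genes were higher and 4.25% lower.

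The 19 lower calls stood in L5 ET, L5/6 NP, L6 CT and L6b neurons. In L5 ET neurons 4 genes were lower, where 6.17% of all genes were lower and 2.93% higher: Ptgs2 at a log2 ratio of -2.14, Nptx2 at -1.89, Sorcs3 at -1.35 and Nrn1 at -1.14. L6 CT neurons also had 4, where 7.69% were lower and 2.56% higher, with Baz1a at -3.02, Inhba at -2.33, Sorcs3 at -2.24 and Nrn1 at -1.27. Inhba, for example, had 9.24, 6.30, 6.07 and 8.45 CPM in L6 CT neurons of libraries 1 to 4, and 39.6 CPM in the other excitatory neurons. L5/6 NP neurons had 6 lower, where 9.64% were lower and 4.6% higher: Inhba at -3.51, Sorcs3 at -2.47, Nptx2 at -2.03, Ptgs2 at -1.84, Rasgrp1 at -1.30, and Baz1a from 2 UMIs at -3.74 with an interval of -6.79 to -1.88. Rasgrp1 had 51.8, 64.9, 34.2 and 65.7 CPM in these neurons against 145 CPM in the others, the single subclass call of that gene. L6b neurons had 5 lower, where 11.3% were: Inhba at -3.08, Nptx2 at -2.24, Nrn1 at -1.35, Ptgs2 from 2 UMIs at -3.42 (-6.47 to -1.57) and Baz1a from 1 UMI at -3.85 (-9.16 to -1.37). L6b is the smallest excitatory subclass, with 172 nuclei.

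**Figure D4:**
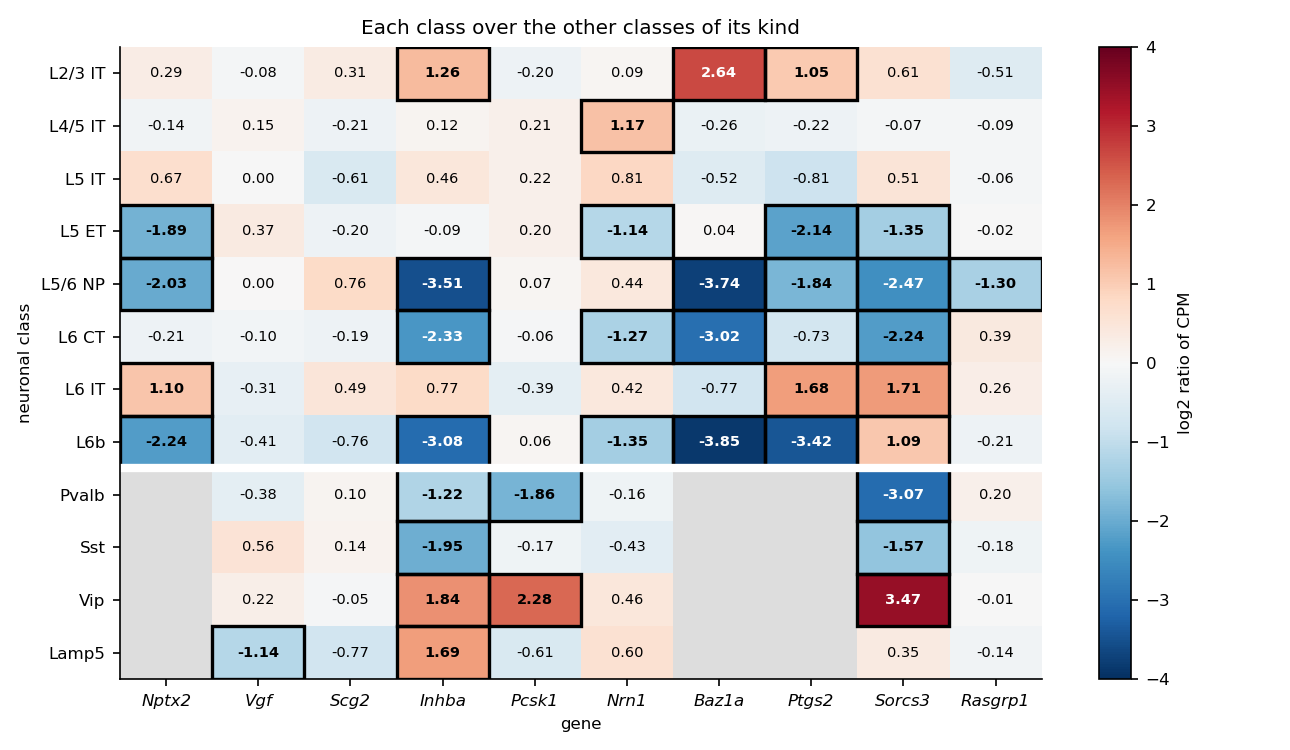
Log2 ratio of each gene in each subclass over the other subclasses of its kind, with the value in each cell and called genes outlined. Colour runs between -4 and 4, and grey cells are genes with under 100 UMIs. The higher calls of the excitatory side stand in L2/3 IT, L4/5 IT, L6 IT and L6b. Those of the inhibitory side stand in Vip and Lamp5, with Sorcs3 in Vip neurons at 3.47. Inhba in L5/6 NP neurons stands at -3.51, and Baz1a is lower still in L5/6 NP and L6b neurons.

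Among the 4 inhibitory subclasses 7 of the 10 genes had at least 100 UMIs, all but Nptx2, Baz1a and Ptgs2. Of the 28 pairs that could be called 4 were higher, where 3.23% of all genes were over the same 4 comparisons, and 6 were lower, where 5.68% were. Vip neurons, which mainly inhibit other interneurons, were higher for 3 genes, where 3.65% of 10273 genes were, and lower for none, where 6.19% were. Sorcs3 had 1320, 1390, 1968 and 1415 CPM in Vip neurons, with 1472 CPM pooled against 132 CPM in the other inhibitory neurons, a log2 ratio of 3.47 (3.38 to 3.57). Pcsk1 had 86.3, 89.8, 122 and 94.5 CPM in Vip neurons, 95.3 CPM pooled against 19.6 CPM, a log2 ratio of 2.28 (1.99 to 2.57). Its Vip level was thus above that of all excitatory neurons pooled (70.6 CPM), although Pcsk1 as a whole was on the excitatory side. Inhba had 38.6, 61.5, 66.9 and 50.02 CPM in Vip neurons, 53.1 CPM pooled against 14.9 CPM, a log2 ratio of 1.84 (1.47 to 2.20), and it was also higher in Lamp5 neurons, at 56.8 CPM against 17.6 CPM and a log2 ratio of 1.69 (1.25 to 2.11), where 3.46% of genes were. The activin subunit thus split the inhibitory neurons, since its levels in Pvalb and Sst neurons were 12.2 and 6.94 CPM.

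Pvalb neurons were lower for Sorcs3 (-3.07), Pcsk1 (-1.86) and Inhba (-1.22), where 5.01% of genes were lower and 3.42% higher. Sst neurons were lower for Inhba (-1.95) and Sorcs3 (-1.57), where 4.18% were lower and 2.41% higher. Vgf and Scg2 were highest in Sst neurons among the named neurons of the cortex, at 108 and 98.3 CPM, with Pvalb neurons at 72.3 and 95.2 CPM and Vip neurons at 95.3 and 89.3 CPM, and the Sst and Vip library ranges overlap for both genes. Lamp5 neurons were lower for Vgf, at 40.0 CPM against 88.0 CPM and a log2 ratio of -1.14 (-1.61 to -0.70), where 7.36% of genes were. This call was lost in 4 settings. The log2 ratio was -0.05 with at most 20% mitochondrial UMIs, where no Vip class was named and the reference therefore differed. After thinning to 1500 UMIs it was -0.65. It was -0.90 with doublets kept and -0.97 when library 1 was left out. Nptx2 was low in all 4 inhibitory subclasses, between 1.86 CPM in Lamp5 and 6.95 CPM in Vip neurons. Baz1a had 0 to 3 UMIs in each, and its 0 of 236 Vip nuclei allows a level of up to 1.49 CPM, taking 3 counts as the limit.

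Since the 10 genes were picked as activity-dependent, excitatory nuclei were next divided by their immediate early genes, the transcription factors and effectors such as Fos, Arc, Egr1, Npas4 and Nr4a1 that neurons switch on first. This comparison was added after the data had been seen. Each nucleus was thinned to 5000 UMIs, which left 7566 excitatory nuclei, and 1775 nuclei with 3 or more of 17 immediate early genes detected were set against 2040 with none. 5 of the 10 genes were called higher in the nuclei with immediate early genes, where 0.693% of 11259 other genes were, and none was lower, where 0.462% were. The median log2 ratio was 1.02 for the 10 genes and -0.05 for all genes tested. Nuclei are not replicates of an animal, so these ratios describe the pooled nuclei and carry no p-value.

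The 5 were Ptgs2, Nptx2, Baz1a, Pcsk1 and Nrn1. Ptgs2 had 26.5 CPM in nuclei with immediate early genes and 4.41 CPM in those with none, and its log2 ratios in libraries 1 to 4 were 3.46, 1.97, 2.36 and 2.96 around a pooled 2.59 (2.12 to 3.08). Nptx2 had 38.9 CPM in nuclei with immediate early genes and 7.35 CPM in those with none, and the library ratios of 2.52, 2.42, 2.34 and 2.34 lay close to the pooled 2.40 (2.04 to 2.78). Baz1a had 14.0 CPM with them and 2.94 CPM without, a log2 ratio of 2.25 (1.66 to 2.87) from 124 and 30 UMIs. Of these UMIs 69 and 19 came from L2/3 IT neurons. Pcsk1 had 134 CPM with them and 33.1 CPM without, a log2 ratio of 2.02 (1.84 to 2.19), and a UMI of Pcsk1 was present in 39.0% of the nuclei with immediate early genes and in 13.4% of those with none. Nrn1 had 138 CPM with them and 64.4 CPM without, a log2 ratio of 1.10 (0.96 to 1.24) that ended just below 2-fold, at 0.99, without library 3.

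The other 5 genes did not reach 2-fold. Scg2 at 0.94 (0.75 to 1.13), Vgf at 0.71 (0.51 to 0.91), Sorcs3 at 0.58 (0.52 to 0.64) and Rasgrp1 at 0.47 (0.36 to 0.58) were above 0 in all 4 libraries. Scg2, for example, had 67.9 CPM in nuclei with immediate early genes and 35.5 CPM in those with none, and it passed 2-fold, at 1.42, when 5 or more immediate early genes were asked for. Inhba was level on both sides, with 33.1 CPM in nuclei with immediate early genes and 31.2 CPM in those with none, a log2 ratio of 0.09 (-0.15 to 0.32), and the share of nuclei with a UMI of it was 13.0% on both. Of 10 other late activity genes from a fixed list, 7 had at least 100 UMIs and 6 of these were called higher, with a median log2 ratio of 1.79 over the 7. They include Gadd45g at 2.12, the neurotrophin gene Bdnf at 1.96 and Gadd45b at 1.94, the Gadd45 genes being DNA repair and demethylation factors, whereas Nedd9 stood at 0.05.

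**Figure D5:**
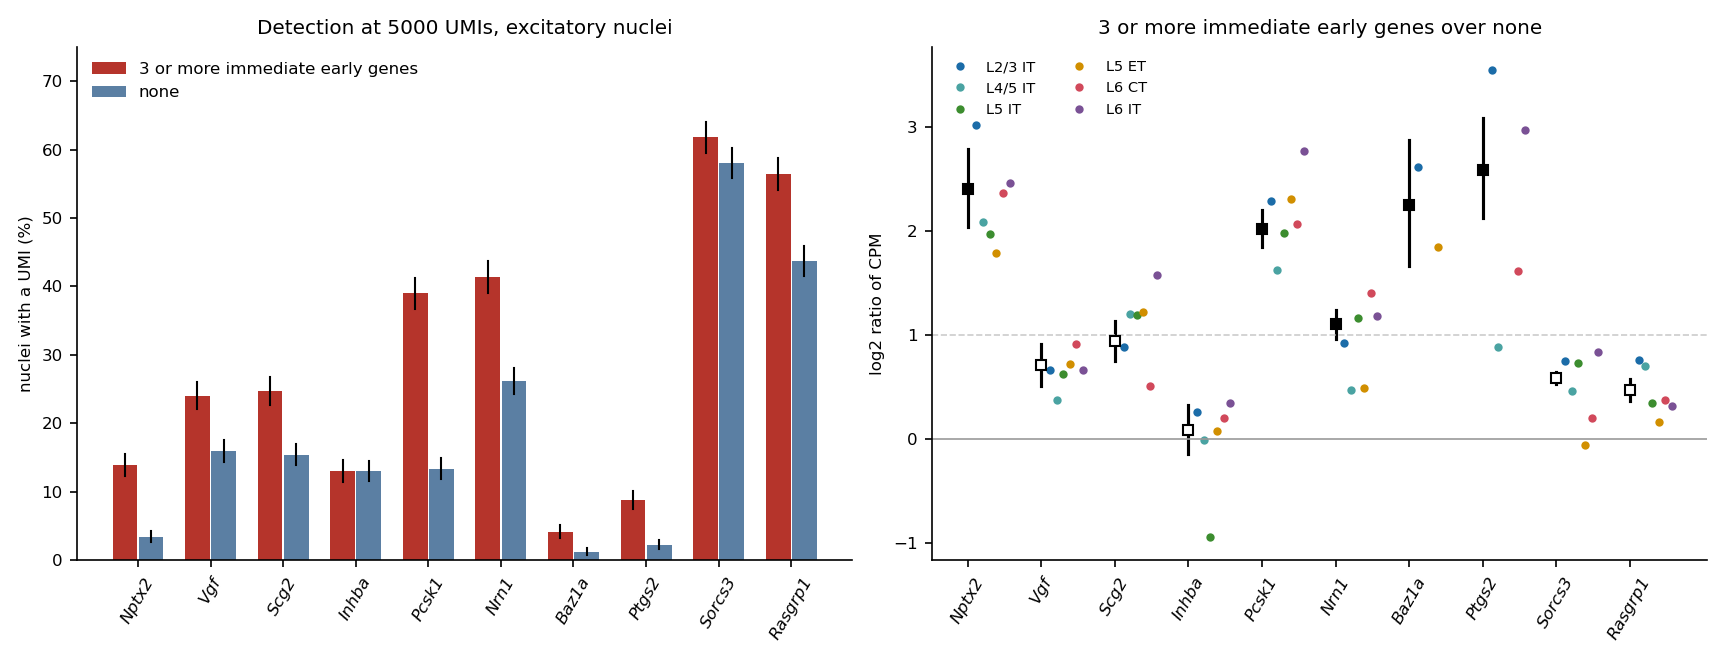
Left, percentage of excitatory nuclei with a UMI of each gene, among nuclei with 3 or more immediate early genes and among those with none, all thinned to 5000 UMIs. Right, log2 ratio of CPM between the same nuclei, with squares for the pooled value (filled where called), lines for its 95% counting interval and dots for 6 classes, each drawn where both sides have more than 3 UMIs. Ptgs2, Nptx2, Baz1a and Pcsk1 lie above 2 on the log2 scale in the pooled value, and Inhba lies at 0.09.

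The same split was made inside each of 6 excitatory classes, since the share of nuclei with 3 or more immediate early genes differed between classes. Among these 6 it ran between 19.4% in L2/3 IT and 33.9% in L4/5 IT neurons. L5/6 NP and L6b were left out for their few such nuclei, 47 and 24. In L5/6 NP the detected share was lower with immediate early genes for Nptx2, Vgf and Sorcs3. It was higher there for Scg2, Inhba, Pcsk1, Nrn1, Ptgs2 and Rasgrp1. In L6b only Sorcs3 had a lower share. The pooled log2 ratio of Nptx2 was above 0 in 6 of 6 classes, between 1.79 and 3.02, but 4 of the 6 had under 100 UMIs, L5 ET with 10 UMIs in nuclei with immediate early genes and 4 in those with none. That of Pcsk1 was above 0 in 6 of 6, between 1.62 and 2.76, and it passed the rule in 5, since in L5 ET neurons (2.31) library 3 stood at -0.21. Nrn1 (0.47 to 1.40), Scg2 (0.51 to 1.57), Vgf (0.37 to 0.91) and Rasgrp1 (0.16 to 0.76) were also above 0 in 6 of 6. Baz1a was above 0 in 6 of 6 too, but it had under 100 UMIs in each class and so no call. It was lowest at 0.14 in L6 CT neurons, in 3 of 559 nuclei with immediate early genes and 3 of 618 with none. Sorcs3 was above 0 in 5 of 6 and Inhba in 4 of 6, with -0.94 (-1.64 to -0.27) in L5 IT neurons, below 0 in all 4 libraries and from 31 UMIs in nuclei with immediate early genes and 50 in those with none, too few for a call. Within L6 IT neurons 5 genes passed the rule, where 1.42% of 4300 genes did: Ptgs2 at 2.96, Pcsk1 at 2.76, Nptx2 at 2.46, Scg2 at 1.57 and Nrn1 at 1.18. Within L6 CT neurons 3 passed, where 0.621% did: Nptx2 at 2.36, Pcsk1 at 2.06 and Nrn1 at 1.40. Pcsk1 passed at 2.29 in L2/3 IT neurons, where 1.32% of genes did, and there Nptx2, Baz1a and Ptgs2 had under 100 UMIs. Pcsk1 also passed at 1.62 in L4/5 IT neurons, where 0.392% did, and at 1.98 in L5 IT neurons together with Nrn1 at 1.16, where 0.587% did. Scg2 passed at 1.22 in L5 ET neurons, where 0.34% did. None of the 10 was called lower in any of the 6 classes, where the share of all genes was 0.356% in L2/3 IT, 0.0% in L4/5 IT, 0.0653% in L5 IT, 0.0783% in L5 ET, 0.508% in L6 CT and 0.465% in L6 IT.

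Other values that could move with this split were looked at beside it. Gad1, the marker of inhibitory neurons, had 11.9 CPM on both sides, and Slc17a7 had 266 CPM in nuclei with immediate early genes and 252 CPM in those with none. The haemoglobin gene Hbb-bs had 62.4 CPM with them and 39.4 CPM without, and was higher in 2 of 4 libraries. Median mitochondrial shares were 1.28% and 1.09%, and median depths before thinning were 11015 and 11796.5 UMIs. The part of these in the ratios was not tested. The tTA-driven reporter, TREmcherry, was detected in 4.06% of nuclei with immediate early genes and in 6.08% of those with none, and its ratio was below 1 in all 4 libraries.

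Nuclei with and without the reporter were compared next. 793 of 7992 excitatory nuclei (9.92%) held a TREmcherry UMI. Reporter-positive nuclei were set against reporter-negative nuclei of the same class in the 7 classes with at least 50 positives, Pvalb among them, so that 70 comparisons were made. None of the 70 was called, and 13 of the 70 had under 100 UMIs. A call needs 1 direction in all 4 libraries, and library 3 held 3 to 11 reporter-positive nuclei in each of these classes, while Pvalb had 2 in library 1. The directions in those libraries rest on few nuclei, so the lack of calls does not show that the levels were alike. Of all genes, 0.24% in L2/3 IT, 0.0904% in L4/5 IT, 0.0652% in L5 IT, 0.0581% in L5 ET, 0.0338% in L6 CT, 0.0607% in L6 IT and 0.164% in Pvalb neurons were called higher in reporter-positive nuclei. In the same order of classes, 0.307%, 0.847%, 0.456%, 0.881%, 0.6%, 1.0% and 1.25% were called lower. The 57 comparisons with enough UMIs had log2 ratios between -0.78 and 1.04. The lowest was Nptx2 in L5 IT neurons (-1.51 to -0.12), below 0 in 3 of 4 libraries. The highest was Baz1a in L5 ET neurons (0.26 to 1.75), from 20 UMIs in positive and 86 in negative nuclei. It was above 0 in 3 of 4 libraries, and positive nuclei of library 3 held no UMI of it. None of the following passed 2-fold. Pcsk1 had a log2 ratio above 0 in all 4 libraries in L5 ET (0.17) and L6 CT neurons (0.24). Below 0 in all 4 libraries were Sorcs3 in L2/3 IT neurons (-0.30), Nrn1 in L4/5 IT (-0.29) and L6 CT neurons (-0.23), and Vgf in L6 CT neurons (-0.18). A nucleus without a reporter UMI may still carry the reporter, and which nuclei came from DOI-treated mice is not known here. A TREmcherry UMI was also held by 134 of 2520 non-neuronal nuclei (5.32%), which are shallower, and by 5.52% of microglia. A reporter UMI may thus be free RNA in some nuclei, and this was not tested.

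The pathways around the 10 genes were taken from fixed lists. In excitatory over inhibitory neurons 9.24% of all genes were called higher and 7.42% lower, so 1 call in a list of about 10 genes is near these shares. Of 12 other granule cargo and peptide processing genes, 1 was called higher in excitatory than in inhibitory neurons, the convertase Pcsk2 with 1136 CPM in excitatory and 238 CPM in inhibitory neurons (log2 ratio 2.26), and 1 was lower, the peptide-amidating enzyme Pam (-1.40). Of 10 activin pathway genes 2 were higher, the signal transducer Smad3 (2.91) and the receptor Acvr1c (2.24). None of 6 pentraxin partners (Nptx1, Nptxr and the AMPA receptor subunits) and none of 8 ISWI remodeler genes was called. Of 9 prostaglandin pathway genes with enough UMIs, Hpgd, which degrades prostaglandins, was higher (1.45) and Ptgs1, the constitutive cyclooxygenase, was lower (-2.21), opposite to Ptgs2. Among 4 other Vps10 receptors Sorl1 was higher (1.02), and among 6 other Ras activators Rasgrp2 was lower (-2.15), opposite to Rasgrp1. Of 10 other late activity genes 4 were higher, Dusp5 (2.25), Bdnf (2.22) and Homer1 (1.86) with the widest ratios, and Gpr3 was lower (-1.16). Of 16 immediate early genes with enough UMIs 5 were higher, led by Egr3 (1.87), Nr4a3 (1.66) and Arc (1.57).

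In the comparison of neurons with non-neuronal nuclei 15.0% of all genes were called higher and 25.7% lower. The granule list had 6 of 12 genes higher and 2 lower. Ptprn2 (3.21), Pcsk2 (2.40) and Cadps (2.37), genes of granule membranes, processing and release, had the widest ratios, whereas Pcsk1n (-1.17), which encodes an inhibitor of Pcsk1, and the carboxypeptidase Cpe (-1.04) were higher in non-neuronal nuclei. Of the pentraxin partners 3 of 6 were higher in neurons, the AMPA receptor subunits Gria1 (3.37), Gria3 (2.11) and Gria4 (1.73). The activin list had 1 higher and 2 lower of 10, the prostaglandin list 2 and 4 of 9, the Ras activators 1 and 1 of 6, the ISWI list 1 and 3 of 8, the other Vps10 receptors 1 and 0 of 4, the other late activity genes 3 and 2 of 10 and the immediate early genes 3 and 1 of 16. Several of these counts are near or below the shares of all genes, among them both activin counts. Outside the 10 genes, the phospholipase Pla2g4a, which releases the substrate of Ptgs2, had 1.01 CPM in neurons and 63.0 CPM in non-neuronal nuclei (-5.97), and Rasgrp3 had 1.49 CPM in neurons and 99.5 CPM in non-neuronal nuclei (-6.06).

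The 10 genes did not share 1 pattern over the 12 neuron classes of the cortex. Between pairs of them, the Pearson correlation of log2(CPM + 1) over these 12 classes was 0.80 for Nptx2 with Ptgs2 and 0.72 for Vgf with Scg2, whereas it was -0.78 for Scg2 with Rasgrp1. The classes share libraries and free RNA, so these are descriptions. Among 10082 genes outside the lists, those most like Nptx2 were Wdr17 and Ccnb1 (both 0.96), those most like Baz1a were Psrc1 (0.97) and Faah (0.95), and those most like Inhba were Fstl4 (0.96) and Ajap1 (0.93). Ptgs2 was most like Pitpnm2 (0.94) and Aopep (0.93), and Nrn1 like Tmem232 (0.95) and Sun1 (0.94). Rasgrp1 was most like Cpped1 (0.98) and Zfand3 (0.97), Scg2 like Zbtb26 (0.96) and Atraid (0.95), and Vgf like Man1b1 (0.92) and Ube2f (0.91). Sorcs3 had the weakest likeness, to Gpr82 (0.87) and Slc9b1 (0.84).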

How the data were processed

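Nuclear RNA of 4 mouse samples was measured with 10x Genomics 3′ chemistry. The deposited values are raw UMI counts in 1 matrix, which the authors made with Cell Ranger 7.1.0 on mm10 per the submitters' processing notes, with the transgenes TREmcherry and tTA as added features. Each barcode ends in 1 of 4 library numbers that no source used here ties to a sample.

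A barcode was kept if it had 500 genes or more, 800 UMIs or more and no more than 5% mitochondrial UMIs, and 289 doublets (2.178%) with a Scrublet score above 0.25 were removed. The 2000 most variable genes, without the list genes, the reporter, mitochondrial and sex-linked genes, were reduced to 30 principal components, and Leiden clustering (resolution 1.0, 15 neighbours) gave 21 clusters. Unnamed excitatory clusters of over 500 nuclei were split once at resolution 0.5, giving 26. A cluster was named where at least 3 fixed markers were 2-fold enriched at 10 CPM or more and the second class scored at most 0.85 of the best. A globin-led cluster, and one over 3 times as deep as its kind, stayed unnamed. The oligodendrocyte and microglia clusters were shallow for their libraries and kept their names because fixed markers (Aspa and St18, and Inpp5d) were among their top 10 genes. Scripts ran in Python 3.11.15 with scanpy 1.11.5, igraph 0.11.9, scikit-learn 1.9.0, numpy 2.4.6 and scipy 1.17.1.

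Intervals are exact 95% intervals (Poisson for levels, conditional binomial for ratios, Clopper-Pearson for shares) and cover counting error only, and not the spread between animals. For levels, a count of 0 was read as at most 3 counts. All 10 genes are named, and of each other list at most the 3 called genes with the widest ratio. Likeness used genes with at least 500 UMIs, and that of Pcsk1 is not reported here. The genes and lists were chosen with earlier results of these data known. The cluster split, the depth rule and the comparison by immediate early genes were chosen after seeing the data. On simulated counts for excitatory over inhibitory neurons, the rule called 50 of 50 genes changed 3-fold, 2 of 48 changed 1.5-fold and 24 of 15502 unchanged genes. The simulated counts held counting error only, without free RNA or added spread between libraries or nuclei. They therefore do not give the error rate of the rule in the data. Alternatives were other filters, clustering resolutions, thinning to 1500 UMIs, a minimum of 30 UMIs, the mean over nuclei and leaving out each library.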

Additional observations from a re-analysis of the deposited data

Results flagged for a closer look

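3 of the 30 groups of 4 library values that were examined (10 genes in excitatory, inhibitory and non-neuronal nuclei) held a library that stood apart from the other 3 by Dixon's criterion, and chance gives about 1 in 20. Vgf in excitatory neurons was at 34.2 CPM in library 3 and between 45.4 and 47.5 CPM in the others. Nrn1 in excitatory neurons was at 124 CPM in library 3 and between 81.2 and 85.3 CPM in the others. Pcsk1 in inhibitory neurons was at 39.7 CPM in library 1 and between 28.4 and 29.5 CPM in the others. Library 3 was also the smallest library and the one with the lowest Slc17a7 share in inhibitory and non-neuronal nuclei, and the part of this in the Vgf and Nrn1 values was not tested.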

How the results depend on the processing

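Of 110 counts of called genes under another setting, 100 lay within 1.5 times the reported count and 10 moved further. For excitatory over inhibitory neurons, 0 genes in place of 1 were called lower with doublets kept and 2 after thinning to 1500 UMIs. For neurons over non-neuronal nuclei, 0 in place of 3 were called higher with at most 1% mitochondrial UMIs, which kept 3832 nuclei. Over the excitatory subclasses, 5 higher calls in place of 8 were left both with at least 1000 genes and at resolution 2.0. Over the inhibitory subclasses, the 4 higher calls became 2 with at most 1% mitochondrial UMIs, 2 at resolution 0.5 and 1 after thinning, and the 6 lower calls became 2 at resolution 0.5 and 3 after thinning. Not all settings compare the same classes. Among inhibitory classes only Pvalb and Sst were named at resolution 0.5, and no Vip class with at most 20% mitochondrial UMIs. With at most 1% mitochondrial UMIs no L2/3 IT class was named, so its 3 calls could not be checked there. OPC went unnamed in that setting and at resolution 0.5. Thinning leaves fewer UMIs to pass the minimum of 100. 3 log2 ratios changed sign: Inhba in neurons over non-neuronal nuclei (-0.15 with at most 1% mitochondrial UMIs), and Inhba in Pvalb (0.87) and Sorcs3 in Sst neurons (1.03) at resolution 0.5. Of the ratios of single genes, 586 kept their call and 47 lost it, and 7 with 0 UMIs on one side gave no value. Leaving out each library in turn gave 6 to 6 higher and 1 to 1 lower calls for excitatory over inhibitory neurons, 3 to 3 and 1 to 1 for neurons over non-neuronal nuclei, 7 to 8 and 19 to 20 over the excitatory subclasses, 4 to 4 and 5 to 6 over the inhibitory subclasses, and 4 to 5 higher calls by immediate early genes. With 2 or more immediate early genes 4 were called (Nrn1 at 0.87), and with 5 or more 5 were. No paired analysis was possible because the libraries are not tied to the samples and so carry no replicate numbers.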

Other observations

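How often the 10 genes were found in the same nuclei differed between classes. At 5000 UMIs a nucleus, 7.61% of 7566 excitatory nuclei held none of the 10 and 38.3% held 3 or more. In L2/3 IT neurons, of 90 ordered pairs of the 10 genes, 88 had the second gene in a larger share of the nuclei with the first than of those without, 56 of them in all 4 libraries. Other classes had fewer such pairs: 72 of 81 in L6 IT, 68 of 81 in L6 CT, 53 of 72 in L5 IT, 45 of 72 in L4/5 IT, 40 of 63 in L5 ET, 35 of 54 in L5/6 NP and 7 of 18 in L6b neurons, with 18, 25, 12, 3, 7, 2 and 0 of them, in the same order, in all 4 libraries. Pairs whose first gene was in few nuclei of a class were left out, so the classes differ in their number of pairs. Both orders of a pair share a direction, so most pairs count 2 times. Pairs of other genes were not counted, so whether these numbers are unusual is not known. Baz1a was detected in 31.0% of the 71 L2/3 IT nuclei with Nptx2 and in 5.61% of the 1123 without. Ptgs2 was detected in 23.9% of the nuclei with Nptx2 and in 5.43% of those without. Pcsk1 was in 38.5% of the nuclei with Ptgs2 and in 15.9% of those without.

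The spread between nuclei of 1 class also differed between the genes. In L2/3 IT neurons at 5000 UMIs the variance of the UMI count over its mean, which is 1 for pure counting, was 2.54 for Baz1a, 1.90 for Pcsk1 and 1.71 for Nptx2, against 1.17 for Vgf and 1.19 for Rasgrp1. Sorcs3 had 5.48. Before thinning, the highest count of Pcsk1 in 1 nucleus was 28 UMIs, and that of Nrn1 was 33. These shares and variances were computed over pooled nuclei and were not tested.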
